A study of Mus musculus with 4 samples.

Results

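The 9 genes described here encode the kinase NIK, the 3 components of the IkB kinase (IKK) complex and the 5 subunits of the transcription factor NF-kB in mouse. They are Map3k14, Chuk, Ikbkb, Ikbkg, Nfkb1, Nfkb2, Rel, Rela and Relb, chosen by symbol for their place in the pathway. All 9 were found among the 24015 symbols of each count table, and all 9 were among the 14191 genes with enough reads to be tested. RNA-seq read counts came from 4 libraries of sorted hematopoietic stem and progenitor cells (HSPC), 2 of them control and 2 caNIK. In caNIK animals a mutant NIK that TRAF3 cannot target sits behind a loxP-flanked stop at the Rosa locus. Vav-iCre, a Cre recombinase driven in blood cells, takes the stop away, so the mutant kinase is made in hematopoietic cells. The sources used here do not give the alleles of the controls, the age and number of animals behind each library, or the sort markers. P-values therefore cover only the spread among these 4 libraries, and that spread may be technical.

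NF-kB is a family of dimeric transcription factors held inactive in resting cells, and it is released along a canonical and a non-canonical route. In the canonical route, the IKK complex of IKKalpha (Chuk), IKKbeta (Ikbkb) and the scaffold NEMO (Ikbkg) marks inhibitory IkB proteins for destruction and frees dimers of p50 (from Nfkb1), RelA and c-Rel. In the non-canonical route, NIK is normally destroyed as fast as it is made by a ligase of TRAF3, TRAF2 and cIAP proteins. When NIK escapes, it activates IKKalpha, and p100 (from Nfkb2) is cut to p52, which works with RelB. Chuk serves both routes and is counted below with the non-canonical arm, beside Map3k14, Nfkb2 and Relb. The canonical arm is Ikbkb, Ikbkg, Nfkb1, Rela and Rel.

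Library totals ran from 18574452 to 23162766 reads. Across genes, log2 normalised counts (CPM, read counts scaled to a common library size) correlated at 0.97 within both groups and at 0.84 to 0.86 between groups. Kit, the receptor that marks progenitors, lay between 506 and 613 CPM in every library. Of 9 stem and progenitor markers, 2 were lower in caNIK (Cd34 and Flt3) and 2 higher (Ly6a and Gata2), and their summed level was 2106 to 2369.8 CPM in control against 1099 to 1471 CPM in caNIK. Markers of mast cells and basophils were higher for 5 of 6 genes (summed level 48.3 to 63.1 CPM in control, 811 to 1523 CPM in caNIK), those of neutrophils for 5 of 5 (29.5 to 41.0 against 223 to 314 CPM), and those of erythroid cells for 3 of the 5 tested (47.7 to 142 against 663 to 1041 CPM). The adult globin genes Hbb-b1 and Hba-a1 were listed at 0 in all libraries. The reason was not tested, and the 0 is not read as absence of globin transcripts. Dendritic cell markers, whose sum in control is mostly Flt3, lay at 493 to 613 CPM in control and 123 to 201 CPM in caNIK, with 3 of 7 tested genes higher, 1 lower and Cd209a at 0 in caNIK. Of the other lists, 1 of 6 macrophage, 2 of 5 NK cell and 2 of 5 megakaryocyte genes were higher. The NK cell markers summed to 30.2 and 31.5 CPM in control and to 68.7 and 19.3 CPM in caNIK replicates 1 and 2. Lower were 1 megakaryocyte gene and 1 of 7 epithelial and stromal genes, and 0 T cell and 0 endothelial genes were called. B cell markers summed to 60.1 to 89.8 CPM and 52.9 to 80.1 CPM, with 1 of 7 higher and 2 lower. Several of these lists move with the groups, and the part of the markers in the results below was not tested. In bulk RNA, fewer cells of a type and less RNA per cell cannot be told apart.

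The 4 genes of the non-canonical arm were each higher in caNIK HSPC, and none of the 5 genes of the canonical arm passed the test. A gene passed at an adjusted p under 0.05 in edgeR's quasi-likelihood test, with Benjamini-Hochberg adjustment over all genes tested. Of all genes tested 22.0% passed, 13.8% as higher and 8.21% as lower in caNIK. Against that background, 4 of 4 genes in the first arm and 0 of 5 in the second passed (0 of 5 at an unadjusted p under 0.05 as well, and 0 of 5 in DESeq2). The median log2 fold change, caNIK against control, was 3.64 in the non-canonical and 0.26 in the canonical arm, and 0.0038 over all genes tested. Both the 4 of 4 and the 3.64 include Map3k14, the gene of the kinase that caNIK animals were made to express. The design calls for more reads of this gene, and those of the mutant and the native kinase cannot be told apart here. Its rise is therefore no evidence about the arm. Both values also include Chuk, which serves both routes and whose call is less firm, as given below. In 8 of the 9 genes the CPM of the groups did not overlap. That was so for 64.9% of all genes tested, so with 2 libraries per group it says little by itself.

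**Figure D1:**
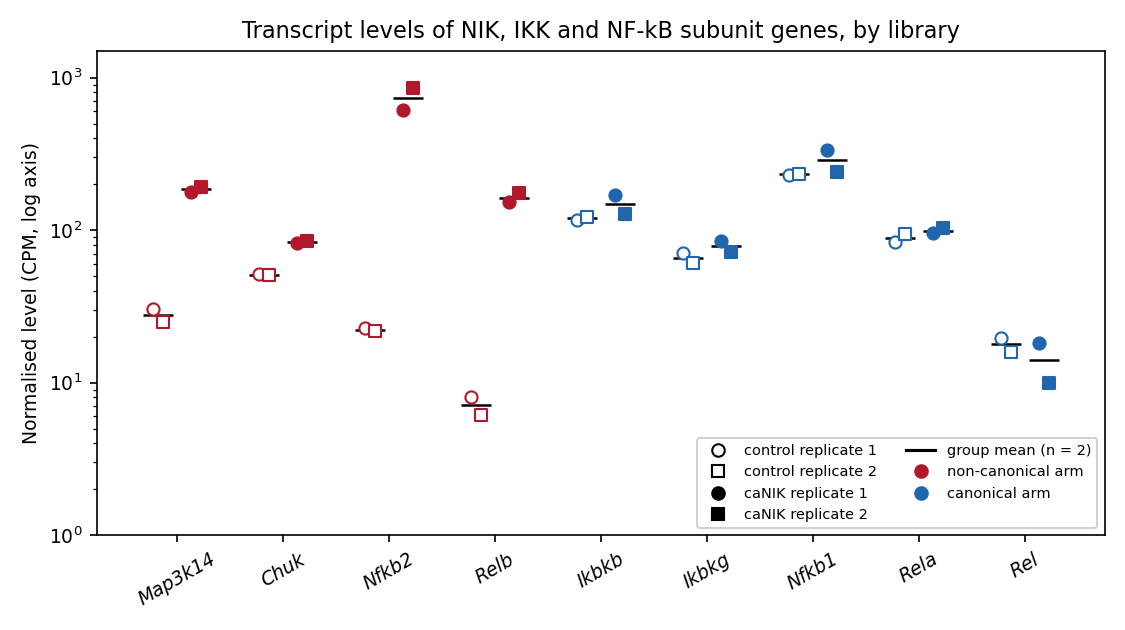
Normalised level of each gene in each library, in CPM on a log axis. Open symbols are control and filled symbols caNIK, circles are replicate 1, squares are replicate 2 and short lines are group means (n = 2). Nfkb2, Relb and Map3k14 rise far above their control level, from 22.2 to 734, 7.09 to 163 and 27.6 to 185 CPM. The means of Chuk (51.1 to 83.5 CPM) and of the 5 canonical genes change far less. Single caNIK libraries still lie apart from the controls, replicate 1 for Nfkb1 (334 CPM) and Ikbkb (170 CPM) and replicate 2 for Rel (9.88 CPM).

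Map3k14 checks the labels, since it encodes NIK. Controls held 582 and 588 of its reads and caNIK libraries 3305 and 3989, which is 30.2 and 25.1 against 177 and 192 CPM. Both caNIK libraries lay far above both controls. Its mean went from 27.6 ± 3.63 to 185 ± 10.5 CPM (SD, n = 2), a 6.70-fold rise (edgeR log2 fold change 2.74 ± 0.17, SE; adjusted p = 0.00023). Reads of the Rosa insert and of the native gene cannot be told apart in these counts. From the largest rise downwards, Map3k14 ranked number 989 among the tested genes, below Nfkb2 (419) and Relb (491).

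Chuk, the kinase that NIK activates, had the smallest rise among the members that passed. Its levels were 51.7 and 50.5 CPM in the controls and 81.9 and 85.1 CPM in caNIK. The groups were apart and the libraries of each group lay close together. The rise was 1.64-fold, with a log2 fold change of 0.71 ± 0.15 (edgeR adjusted p = 0.016). The call was lost with either control library left out: without control replicate 1 or 2 the log2 fold change was 0.71 and 0.69, with adjusted p = 0.10 in both fits. It also did not pass a test against a change of 1.5-fold (edgeR glmTreat, adjusted p = 0.31).

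The other catalytic subunit of the complex, Ikbkb, was at 117 and 122 CPM in control and at 170.4 and 128 CPM in caNIK. Its caNIK replicate 2 was close to the controls, and the log2 fold change of 0.32 ± 0.18 did not pass (edgeR adjusted p = 0.26). The 95% confidence interval, -0.11 to 0.75, holds the value of Chuk. Ikbkb was at 0.10 without caNIK replicate 1 and at 0.49 without caNIK replicate 2 (edgeR adjusted p = 0.060). Ikbkg, the scaffold to which both kinases bind, had 70.6 and 60.6 CPM in control and 85.3 and 71.8 CPM in caNIK, where caNIK replicate 2 was just above control replicate 1. Its log2 fold change was 0.26 ± 0.17 (interval -0.15 to 0.67; edgeR adjusted p = 0.33), and 0.13 to 0.36 with 1 library left out. The differences in response among the 3 IKK genes were not tested in the fit across genes, and their read ratios are given further on.

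Nfkb2 was the most changed member. It encodes p100, which both restrains RelB and is the source of p52, and it is itself known as an NF-kB target gene. The controls held 438 and 509 reads and the caNIK libraries 11481 and 17649 reads, or 22.7 and 21.7 against 617 and 851 CPM. The control libraries were nearly alike, and caNIK replicate 2 was the higher of its pair. The mean went from 22.2 ± 0.729 to 734 ± 166 CPM, a 33.0-fold rise (log2 fold change 5.05 ± 0.22; edgeR adjusted p = 8.2e-05). Nfkb2 ranked number 24 by p among all genes tested.

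In the annotation used here (GENCODE M21, mouse build GRCm38) 299 exonic bases of Nfkb2 are shared with Psd, a gene on the other strand that encodes an exchange factor for the small GTPase ARF6. Psd was counted 54 and 112 times in control and 1666 and 1901 times in caNIK, with a log2 fold change of 4.57 ± 0.28 (edgeR adjusted p = 0.00022). No source used here gives the strand setting of the counting, and how far reads of one gene were counted for the other was not tested. The caNIK counts of Psd were 1666 and 1901 beside 11481 and 17649 for Nfkb2. Nfkb2 also shares 531 exonic bases with AC114539.1 on the other strand, which is not among the symbols of the tables. Map3k14 shares 135 exonic bases with the clone 1700028N14Rik on the same strand, which is not among them either. No shared exonic bases were found for the other 7 genes.

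Because Nfkb2 and Rel differ in response while both have a match to the NF-kB recognition motif near a start, their promoters are printed. RefSeq promoter windows (build GRCm38.p6, 250 bases before to 50 after a gene's start) were given for 6 of the 9 genes, in 11 windows. Each was searched on both strands for the kappa-B consensus, which is 3 G, a purine, any base, A or T, 2 pyrimidines and 2 C. Capitals mark the matches, which may overlap each other. The first 2 windows of Nfkb2, on the plus strand, lie at chr19:46304487-46304786 and chr19:46305445-46305744, and that of Rel, on the minus strand, at chr11:23770920-23771219. Each is shown 5′ to 3′ along its gene.
Nfkb2, first window: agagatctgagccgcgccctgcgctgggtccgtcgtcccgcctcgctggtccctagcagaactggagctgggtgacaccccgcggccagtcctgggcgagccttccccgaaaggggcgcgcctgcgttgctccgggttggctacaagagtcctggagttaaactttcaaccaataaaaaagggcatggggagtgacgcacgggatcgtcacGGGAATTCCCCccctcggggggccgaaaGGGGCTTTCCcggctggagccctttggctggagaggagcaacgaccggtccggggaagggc
Nfkb2, second window: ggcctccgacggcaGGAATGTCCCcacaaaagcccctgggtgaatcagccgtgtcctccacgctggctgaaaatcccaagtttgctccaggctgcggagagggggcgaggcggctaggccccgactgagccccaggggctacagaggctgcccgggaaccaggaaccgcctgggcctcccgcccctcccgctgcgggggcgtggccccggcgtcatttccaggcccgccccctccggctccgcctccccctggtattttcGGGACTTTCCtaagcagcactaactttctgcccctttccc
Rel: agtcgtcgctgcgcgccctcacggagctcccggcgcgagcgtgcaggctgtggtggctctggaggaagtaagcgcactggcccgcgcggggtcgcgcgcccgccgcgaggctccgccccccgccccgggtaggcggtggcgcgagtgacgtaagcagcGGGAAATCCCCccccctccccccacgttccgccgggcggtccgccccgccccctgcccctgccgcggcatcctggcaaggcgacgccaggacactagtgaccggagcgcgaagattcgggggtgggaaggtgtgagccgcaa

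The first window of Nfkb2 held the motif in 2 separate stretches. One is the palindrome GGGAATTCCC with an overlapping match on the minus strand, from 39 to 29 bases before the start, and the other is GGGGCTTTCC from 11 to 2 bases before it. The second window held GGGACTTTCC from position 10 to 19 after the start and GGGACATTCC on the minus strand, 236 to 227 bases before it. The remaining window of Nfkb2, which overlaps the second, repeats GGGACTTTCC. The window of Rel had 1 stretch, with GGGAAATCCC from 92 to 83 bases before the start and an overlapping match on the minus strand. The windows of Map3k14, Chuk, Ikbkg and Rela held no match. Among all 32851 windows, 4.51% held at least 1 match, as did 5.14% of the 27025 genes. A match is a description of these letters and says nothing of binding.

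Relb, the partner of p52, was at 8.04 and 6.14 CPM in control (155 and 144 reads). In caNIK it reached 152 and 174 CPM (2835 and 3607 reads). No caNIK library came near the controls, and the pair differed little. The mean went from 7.09 ± 1.35 to 163 ± 15.3 CPM, which is 23.1-fold (log2 fold change 4.53 ± 0.21; edgeR adjusted p = 9.5e-05).

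The canonical subunits gave other values. Nfkb1, whose p105 product is the source of p50, was at 230.3 and 234 CPM in control and at 334 and 239 CPM in caNIK. Control libraries were almost equal and caNIK replicate 1 alone stood clearly above them. The log2 fold change of 0.30 ± 0.19 (interval -0.15 to 0.75) did not pass (edgeR adjusted p = 0.31). It passed without caNIK replicate 2 (0.50 ± 0.12; edgeR adjusted p = 0.039) and was 0.04 ± 0.13 without caNIK replicate 1, so 1 library decides it. Rela, the main activating subunit of the canonical dimer, was at 83.9 and 94.7 CPM in control and at 95.4 and 103 CPM in caNIK. The lower caNIK library hardly exceeded the higher control, and the log2 fold change was 0.15 ± 0.15 (interval -0.21 to 0.51; edgeR adjusted p = 0.54), or 0.05 to 0.24 with 1 library left out.

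Rel encodes c-Rel, the subunit best known from lymphocytes. It was the member with overlapping groups, at 19.8 and 15.9 CPM in control and at 18.1 and 9.88 CPM in caNIK. Its log2 fold change was -0.35 ± 0.34 (edgeR adjusted p = 0.52), and the interval of -1.17 to 0.47 is the widest of the 9. Without caNIK replicate 2 the value was 0.0034. For the 5 canonical genes the upper ends of the intervals ran from 0.47 to 0.75, all below the values of Map3k14, Nfkb2 and Relb. The ends of Ikbkb and Nfkb1, both 0.75, were above the 0.71 of Chuk.

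**Figure D2:**
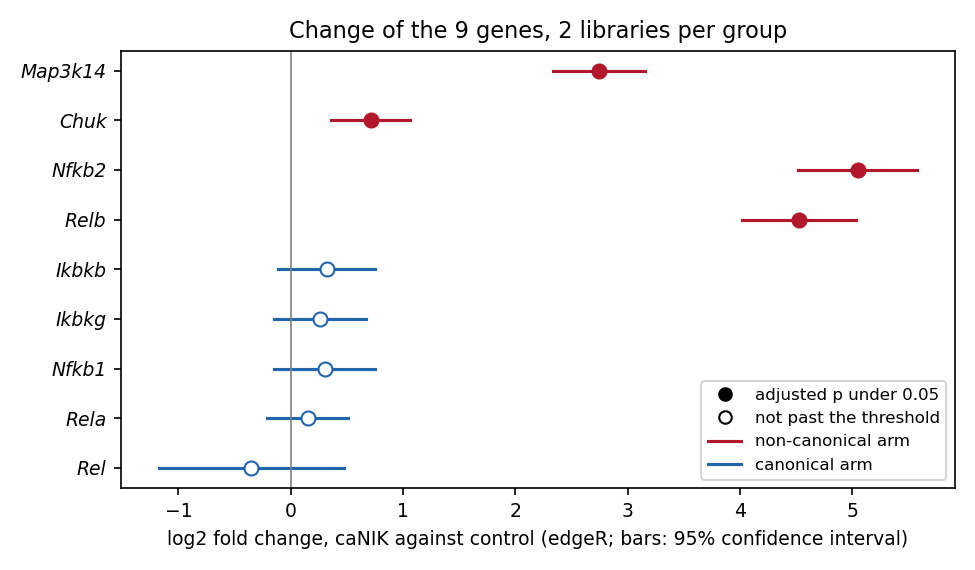
Log2 fold change of each gene, caNIK against control, with its 95% confidence interval from edgeR (2 libraries per group). Filled points passed at an adjusted p under 0.05. The intervals of Nfkb2, Relb and Map3k14 start at 4.52, 4.02 and 2.33, well to the right of all others, and every canonical gene's interval includes 0.

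Ratios within a library compare the arms without any scaling between libraries. Of Nfkb2 to Nfkb1, the genes of the processed precursors, there were 0.0986 and 0.0925 reads per read in control and 1.85 and 3.56 in caNIK. Nfkb2 thus had fewer reads than Nfkb1 in both controls and more in both caNIK libraries. On the log2 scale the mean ratio went from -3.39 ± 0.065 to 1.36 ± 0.67 (SD, n = 2), a difference of 4.75. For Relb to Rela the ratios were 0.0958 and 0.0648 in control and 1.60 and 1.69 in caNIK, a difference of 4.38 on the log2 scale. This pair also crossed over, and its caNIK libraries were closer to each other than its controls. Relb to Rel went from 0.407 and 0.386 to 8.41 and 17.6, a difference of 4.94.

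The kinases shifted less. Map3k14 to Ikbkb was 0.258 and 0.206 in control and 1.04 and 1.51 in caNIK, a difference of 2.44 on the log2 scale. Chuk to Ikbkb was 0.442 and 0.414 against 0.481 and 0.667, and Chuk to Ikbkg was 0.731 and 0.833 against 0.960 and 1.19. Those differences, 0.40 and 0.45, were of the order of the spread in caNIK, where the SD was 0.33 and 0.22. With 1 library left out the first ran from 0.17 (without caNIK replicate 2) to 0.64 (without caNIK replicate 1), and the second from 0.30 to 0.60 without the same libraries. All 6 ratios were higher in both caNIK libraries than in both controls, in each case with an exact two-sided permutation p = 0.33, also after adjustment over the 6. That is the smallest p that 2 against 2 libraries can give, so this test cannot pass here.

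**Figure D3:**
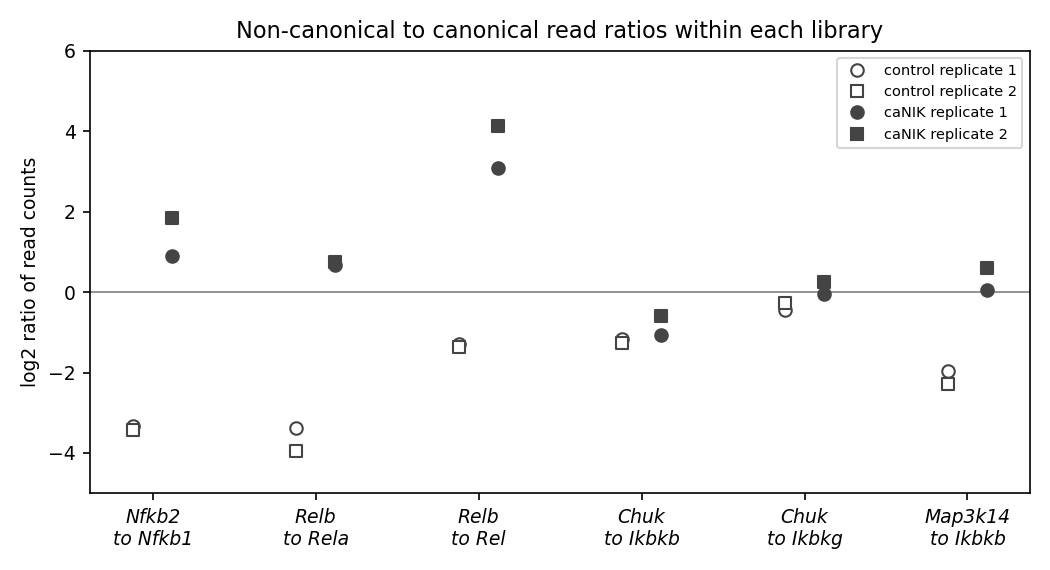
Log2 ratio of the reads of a non-canonical to those of a canonical gene within each library. Open symbols are control, filled symbols caNIK, circles replicate 1 and squares replicate 2. The 3 ratios with Nfkb2 or Relb rise by 4.38 to 4.94, that of Map3k14 to Ikbkb by 2.44, and those with Chuk by 0.40 and 0.45.

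Levels of different genes were compared per length, as CPM per kilobase of the longest coding transcript in GENCODE M21. In control, Nfkb1 led at 56.4 ± 0.694 CPM per kilobase (SD, n = 2), followed by Rela (32.9 ± 2.80), Ikbkb (30.02 ± 0.896), Chuk (14.6 ± 0.237), Ikbkg (9.38 ± 1.013), Map3k14 (6.505 ± 0.855), Nfkb2 (5.77 ± 0.190), Relb (3.21 ± 0.610) and Rel (2.39 ± 0.366). Neighbours in that order did not overlap, except Map3k14 and Nfkb2. In caNIK the first was Nfkb2 (191 ± 43.1), then Relb (73.8 ± 6.93), Nfkb1 (69.5 ± 16.3), Map3k14 (43.5 ± 2.47), Ikbkb (37.5 ± 7.62), Rela (36.5 ± 1.92), Chuk (23.9 ± 0.644), Ikbkg (11.2 ± 1.37) and Rel (1.87 ± 0.778). There, Relb overlapped with Nfkb1, Map3k14 with Ikbkb, and Ikbkb with Rela. Per length, Nfkb2 went from place 7 to 1, Relb from 8 to 2 and Map3k14 from 6 to 4.

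The make-up of the subunit transcripts changed with these rises. Per length, Nfkb2 made up 5.74 ± 0.321% of the 5 subunits' reads in control and 50.9 ± 6.80% in caNIK, and Relb 3.19 ± 0.679% and 19.8 ± 0.00591%. Nfkb1 went from 56.1 ± 0.606% to 19.0 ± 6.15%, Rela from 32.6 ± 2.03% to 9.81 ± 0.404% and Rel from 2.38 ± 0.419% to 0.515 ± 0.257%. Shares must add up, so a smaller share is no fall in level. The summed level of Nfkb1, Rela and Rel was 89.5 and 93.9 CPM per kilobase in control and 119 and 97.1 in caNIK, while that of all 5 subunits went from 101 ± 2.33 to 372 ± 34.9. The 4 genes of NIK and the IKK complex, with the scaffold gene Ikbkg among them, summed to 60.5 ± 1.21 in control and 116 ± 5.88 in caNIK. Of these sums Map3k14 was 10.7 ± 1.199% and 37.6 ± 4.03%. With reads not corrected for length, the share of Relb was 1.93% in control and 12.6% in caNIK, more than 1.5 times below the value per length. That of Rel was 4.84% and 1.103%, in both groups more than 1.5 times above it.

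**Figure D4:**
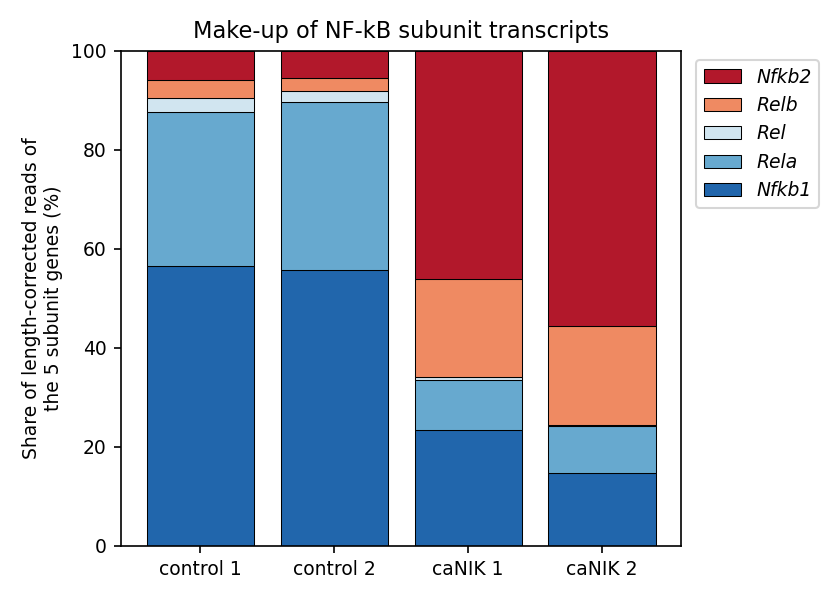
Share of each NF-kB subunit gene in the length-corrected reads of all 5, in percent, for each of the 4 libraries. Nfkb2 and Relb together are the thin upper part of the control bars (5.74% and 3.19% on average) and most of the caNIK bars (50.9% and 19.8%).

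The caNIK libraries differed from each other in both arms. Replicate 2 was above replicate 1 for Map3k14, Chuk, Nfkb2 and Relb and below it for Ikbkb, Ikbkg, Nfkb1 and Rel, with Rela on the side of the first group. For Nfkb2 the pair was 617 and 851 CPM, and for Nfkb1 it was 334 and 239 CPM. Of the marker lists, mast cell and basophil genes were lower in caNIK replicate 2 (811 against 1523 CPM summed) and erythroid genes were higher (1041 against 663). Whether these go together was not tested, since a pair of libraries gives no test.

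Genes of NIK turnover were mostly higher in caNIK. Of 8 genes of NIK turnover, 7 were higher in caNIK and 0 lower, with a median log2 fold change of 1.28, against 13.8% of all genes tested called higher. The ubiquitin ligase genes Birc3 (cIAP2) and Birc2 (cIAP1) went from 29.0 to 227 and from 51.2 to 238 CPM. On the log2 scale Birc3 rose by 2.97 ± 0.16 (edgeR adjusted p = 0.00018) and Birc2 by 2.22 ± 0.19 (edgeR adjusted p = 0.00071). Tank, an adaptor that binds TRAF proteins, rose by 1.98 ± 0.16, from 33.3 to 131 CPM. The member that did not pass was Tbk1, a kinase that can phosphorylate NIK, at 77.5 and 72.7 CPM.

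Genes of IkB proteins and feedback inhibitors were also mostly higher. The list includes atypical IkB proteins and is not one of inhibitors alone. Of 11 IkB proteins and feedback inhibitors, 8 were higher and 0 lower (median log2 fold change 1.25), beside 13.8% and 8.21% of all genes tested. Nfkbia, which encodes the classical inhibitor IkBalpha, rose from 30.8 to 624 CPM, a log2 fold change of 4.34 ± 0.27. Bcl3, an atypical IkB protein that binds p50 and p52 in the nucleus, rose by 2.95 ± 0.22 and Nfkbie (IkBepsilon) by 2.99 ± 0.24. Adjusted p in edgeR ran from 0.00022 (Nfkbia) to 0.00052 (Nfkbie). Nfkbib and Nfkbiz, which were among the 8, lost the call when 1 library was left out, Nfkbib without caNIK replicate 2 (edgeR adjusted p = 0.055) and Nfkbiz whichever library it was (0.060 to 0.14).

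The receptors that can signal through NIK moved in both directions. Of 9 tested, 5 were higher and 2 lower (median log2 fold change 1.25, which stays the same with Cd40 at its bound), beside 13.8% and 8.21% of all genes. Tnfrsf11a (RANK) rose from 2.001 to 90.4 CPM (log2 fold change 5.50 ± 0.32; edgeR adjusted p = 2e-04). Cd40, the B cell and dendritic cell costimulatory receptor, was without reads in the controls and had 324 and 229 reads in caNIK, at least 200.2-fold higher when 3 reads over the control group are taken as its floor. Tnfrsf8 (CD30), likewise without a control read, had 11 and 6 reads in caNIK and was too low to be tested. Tnfrsf4 (OX40), a costimulatory receptor of T cells, rose from 2.53 to 33.8 CPM (log2 fold change 3.74 ± 0.47; edgeR adjusted p = 0.0028). Its caNIK libraries were at 19.6 and 48.1 CPM, and the value was 2.93 without caNIK replicate 2. Tnfrsf13c (BAFF receptor), also among the 5, did not pass without caNIK replicate 2 (edgeR adjusted p = 0.057). Ltbr, the lymphotoxin beta receptor, fell by 1.55 on the log2 scale, with SE 0.20 (edgeR adjusted p = 0.0030). The other lower receptor was Cd27, at -1.89 ± 0.46. Its caNIK libraries were at 42.7 and 14.5 CPM, and the value was -2.86 without caNIK replicate 1 and -1.33 without caNIK replicate 2.

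Genes upstream of the canonical IKK complex gave 2 higher and 1 lower of 18, with a median log2 fold change of 0.35. These counts are close to the background of 13.8% higher and 8.21% lower among all genes tested. Bcl10, an adaptor that links antigen receptors to IKK, rose by 1.38 ± 0.16 (edgeR adjusted p = 0.0020). Its partner, the paracaspase Malt1, rose by 0.63 ± 0.16, and the adaptor Card9 fell by 1.28 on the log2 scale, with SE 0.34 (edgeR adjusted p = 0.035 and 0.038). Both calls were lost without control replicate 2 (0.15 and 0.18) or caNIK replicate 1 (0.087 and 0.10), and that of Malt1 also without control replicate 1 (0.18). Scaling by library totals or upper-quartile factors also ended the call of Malt1 (edgeR adjusted p = 0.061 and 0.052). The kinase Map3k7 (TAK1), which activates IKKbeta, was at 107 and 122 CPM and did not pass (log2 fold change 0.18 ± 0.14).

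Of 8 genes of the ubiquitin ligase that marks IkB and p100, 0 passed in edgeR (0 at an unadjusted p under 0.05, and 0 in DESeq2). Of all genes tested, 13.8% were higher and 8.21% lower. Btrc, its substrate receptor, was at 52.5 and 67.6 CPM. Among 14 other kinases of the MAP3K family, to which NIK belongs, 1 was higher and 0 lower (3 in either direction at an unadjusted p under 0.05, and 1 in DESeq2), with a median log2 fold change of 0.17. This too is not far from the background. That gene was Map3k8 (TPL2), the kinase held by p105, at 6.77 and 21.9 CPM (log2 fold change 1.69 ± 0.36; edgeR adjusted p = 0.018). It did not pass without caNIK replicate 1 (0.059).

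**Figure D5:**
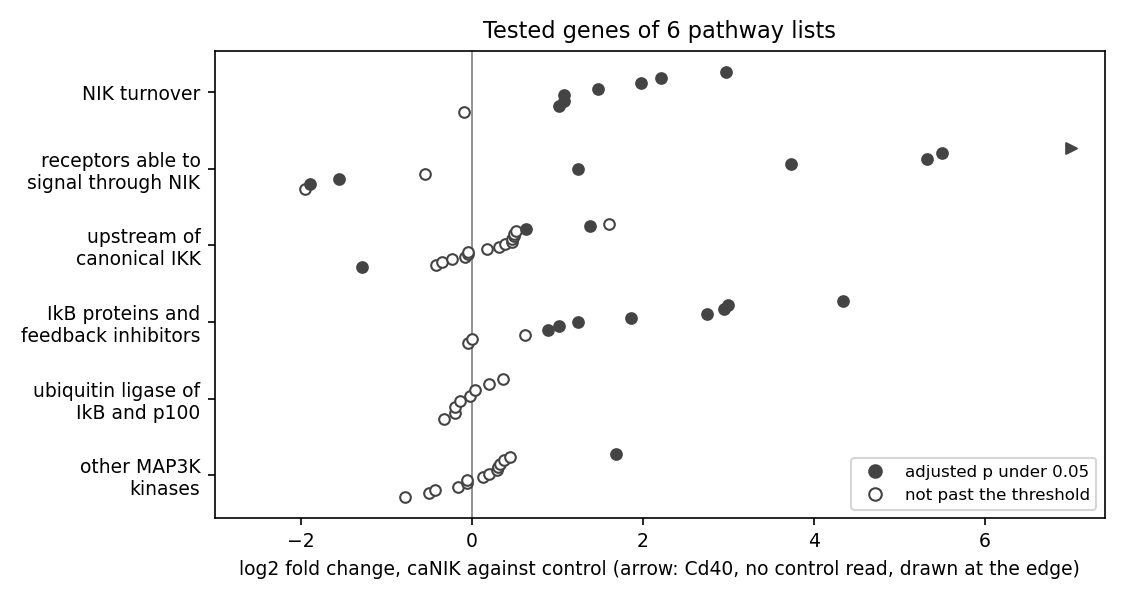
Log2 fold change of every tested gene in 6 lists of pathway genes, caNIK against control; filled points passed at an adjusted p under 0.05 in edgeR. The arrow is Cd40, which had no control read and is drawn at the edge. Genes of NIK turnover (7 of 8) and of IkB proteins and feedback inhibitors (8 of 11) lie mostly to the right. Receptors lie on both sides, and the last 2 lists centre near 0 (medians -0.08 and 0.17).

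For the members that rose most, the genes most alike in pattern were found as those with the smallest Euclidean distance in log2 CPM over the 4 libraries, each gene centred on its own mean, among 10428 genes with a mean of at least 5 CPM over the libraries. Low genes could pass that mean through the caNIK group alone, as Pla2g7 did (0.571 and 0.469 CPM in control, 16.9 and 24.8 CPM in caNIK). Of the other genes named below, Bmp7, Pmaip1, Axin2 and Tvp23a were also under 5 CPM in both controls. Nearest to Map3k14 were the immediate early gene Ier5 (distance 0.13), Cep162 (0.18) and Tvp23a (0.18). Ier5 had 32.8 and 28.6 CPM in control and 192 and 193 CPM in caNIK, beside 30.2, 25.1, 177 and 192 CPM for Map3k14. Nearest to Nfkb2 were Pla2g7 (0.14), the growth factor gene Bmp7 (0.21) and Pmaip1 (0.25), which encodes the pro-apoptotic protein Noxa. Nearest to Relb were Axin2 (0.13), the phosphatase gene Dusp4 (0.19) and Nfkbia (0.29). Nfkbia was thus alike in pattern as well as in pathway, while the others were not in the lists above. Most of each pattern is the step between the groups, so over 4 libraries likeness means little more than a similar rise.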

How the data were processed

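The authors deposited raw read counts per gene symbol, 1 table per library, per the file headers. Build mm9, DESeq2 1.10.1, featureCounts 1.5.0, TopHat2 2.1.0 and FastQC are listed, without roles, per the submitters' processing notes. No source used here gives the annotation, strand setting or treatment of multiply mapped reads. Groups came from the sample titles.

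The tests used edgeR 4.0.16 (R 4.3.3): filterByExpr, TMM scaling, and a quasi-likelihood F test (two-sided) with group as the only term, adjusted by Benjamini-Hochberg over all 14191 genes kept. CPM are TMM-normalised, SE come from the F statistic, and 95% intervals from SE and the fit's degrees of freedom. Alternatives were DESeq2 1.42.0, limma-voom (limma 3.58.1), other scalings and filters, a replicate block, and each library left out. Lengths came from GENCODE M21 (GRCm38), and coordinates are GRCm38, not the authors' mm9.

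The members, lists and tests were chosen with earlier results of these data known. Named genes were the 9 members, from each list up to 3 that passed with the smallest p, those without reads in a group, and the 3 most alike in pattern to Map3k14, Nfkb2 and Relb. Tbk1, Ltbr, Cd27, Tnfrsf13c, Nfkbib, Nfkbiz, Map3k7, Btrc and Psd, and the marker genes singled out, were named after their values were seen. A stem and progenitor marker is not reported here and was left out of its list.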

Additional observations from a re-analysis of the deposited data

How the results depend on the processing

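Map3k14, Nfkb2 and Relb passed as higher under every scaling, filter, tool and left-out library tried and against a change of 1.5-fold, and Rela, Ikbkb and Ikbkg passed under none. The call of Chuk was lost with 1 control library left out (log2 fold change from 0.663 to 0.742 over the 4 left-out fits) and against a change of 1.5-fold (0.71). Nfkb1 ran from 0.044 to 0.503 and Rel from -0.846 to 0.0034 over the left-out fits, Rel turning its sign without caNIK replicate 2. Where 1 library of a group is left, it is assumed to vary like the other group.

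The titles number the replicates in both groups, but nothing says that a number marks shared animals or days; deviations of replicate 1 from the group means correlated at 0.21 between groups. With a replicate block 4 members passed, as without it, and Chuk had a log2 fold change of 0.71. Over all genes the replicate block gave 4260 calls in place of 3129, with 1766 lower in place of 1165. It gave 5 higher genes upstream of canonical IKK and 1 lower MAP3K gene.

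Upper-quartile factors and library totals each gave 1 higher gene upstream of canonical IKK and 1 lower MAP3K gene. With libraries left out, the lower genes upstream of canonical IKK were 0 to 1 and the higher MAP3K genes 0 to 1. Using a looser pattern of 3 G, any 5 bases and 2 C, 6 of the 6 genes with a promoter window had a match, as did 53.5% of all genes. The cause of these shifts was not tested. Depth was not limiting for the members, the lowest of which had 144 reads, but 2 libraries per group limit the precision.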
